A study of Rattus norvegicus with 12 samples.

Results

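The genes of the IL-1 receptor and of MyD88 signalling were followed in INS-1E cells, an insulin-secreting line from a rat insulinoma that stands in for β-cells. The members are the 10 gene symbols Il1r1, Il1r2, Il1rap, Myd88, Irak1, Irak2, Irak3, Irak4, Traf6 and Sigirr, taken by name from the 34034 symbols of the count table. All 10 were among the 14324 symbols with a CPM (reads of a gene scaled to library size) above 1 in at least 2 libraries. The members were taken by name and role, with no threshold on their values. Bulk poly(A) RNA was sequenced in 4 groups of 3 libraries, all from wild-type INS-1E cells. Untreated cells received no cytokine. IL-1βlow cells were preconditioned with IL-1β at 10 pg/ml for 72 h, with fresh cytokine every 24 h. CYT cells were challenged with IL-1β at 100 pg/ml and IFN-γ at 5 ng/ml for 16 h. IL-1βlow + CYT cells were preconditioned first and given the same challenge after the medium was renewed. No group was challenged with IL-1β or IFN-γ alone, so the effects of these cytokines in the challenge cannot be told apart. The question asked of these genes was whether their transcripts differ in the cells whose response to the challenge is damped. One clonal cell line in culture cannot stand for islets, where other cells also respond to IL-1.

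IL-1β binds the signalling receptor IL1R1, which then recruits the co-receptor IL1RAP. The cytoplasmic TIR domains of the pair bind the adaptor MyD88, which assembles the kinases IRAK4, IRAK1 and IRAK2, and these hand the signal to the ubiquitin ligase TRAF6 and on to the TAK1 and IKK kinases that release NF-κB. Several members hold the pathway back. IL1R2 is a decoy receptor without a TIR domain, SIGIRR is an inhibitory receptor of the same family, and IRAK3, also called IRAK-M, is a pseudokinase that dampens signalling through IRAK and TRAF6. β-cells are known for a high level of IL-1 receptor transcripts.

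Total counts ran from 15812640 to 20246806 per library (median 17461925.5), and the chi-square per degree of freedom between replicates was 7.11 to 27.5, where sampling noise alone gives about 1, so each library was counted as 1 replicate. The labels call the replicates biological without saying more about separate cultures, so p-values measure the spread between these libraries. Of 10 β-cell marker genes, 9 passed the CPM filter, and G6pc2 had at most 4 counts in any library. The summed CPM of the β-cell markers ran from 51481 to 61489 in untreated, 47399 to 57688 in IL-1βlow, 18716 to 21203 in CYT and 27058 to 31657 in IL-1βlow + CYT libraries. Markers of leukocytes and macrophages summed to between 1.03 and 5.77 CPM in all 12 libraries, and Ptprc and Itgam, which define leukocytes and myeloid cells, were at 0 throughout. In bulk samples, fewer cells of a type and less RNA per cell cannot be told apart.

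Promoter sequence is shown for the members with a promoter entry among the 4 members whose adjusted p was under 0.01 between CYT and untreated cells. These are the 250 bases before the transcription start in RefSeq's GRCr8 assembly, a later build than the mRatBN7.2 used for the counts. Of the 10 members, 7 matched a RefSeq promoter by symbol, and Il1r2, Irak2 and Traf6 had no entry. Capitals mark matches, on either strand, to GGG, any 5 bases and CC (κB-like), to TTCNNNGAA (GAS-like, the STAT type), to TGANTCA (the AP-1 type), or to GAAA, any 2 bases and GAAA again (ISRE-like).
Il1r1, chr9:50034133-50034382, plus strand: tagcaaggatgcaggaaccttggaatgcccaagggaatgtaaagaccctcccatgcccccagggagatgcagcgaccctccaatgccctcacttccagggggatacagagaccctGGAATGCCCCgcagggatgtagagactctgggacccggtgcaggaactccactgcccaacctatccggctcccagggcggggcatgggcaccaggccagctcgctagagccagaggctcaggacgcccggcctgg
Irak3, chr7:57598632-57598881, minus strand: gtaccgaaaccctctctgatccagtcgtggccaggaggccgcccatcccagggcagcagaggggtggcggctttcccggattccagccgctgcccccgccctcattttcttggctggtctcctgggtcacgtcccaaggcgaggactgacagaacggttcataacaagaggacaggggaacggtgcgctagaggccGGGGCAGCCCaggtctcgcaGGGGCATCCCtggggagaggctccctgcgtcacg
Myd88, chr8:127956231-127956480, minus strand: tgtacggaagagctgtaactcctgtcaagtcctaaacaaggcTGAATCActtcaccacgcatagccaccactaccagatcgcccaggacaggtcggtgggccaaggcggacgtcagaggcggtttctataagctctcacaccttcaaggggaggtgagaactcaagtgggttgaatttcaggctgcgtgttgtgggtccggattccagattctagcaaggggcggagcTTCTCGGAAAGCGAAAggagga

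The Irak3 window held 2 κB-like matches, 54 and 34 bases before the start, and the Il1r1 window held 1, on the other strand, 135 bases before it. A κB-like match is common, occurring in 42.3% of 33469 rat promoter windows of the same length. Among the members whose windows are not shown, Irak4 and Sigirr also held 2 each, Il1rap 8 and 5 in its separate windows, and Irak1 none. In Myd88, no κB-like match was found, and a GAS-like match 22 bases before the start overlapped an ISRE-like match by 3 bases. An AP-1 type match lay 208 bases before the Myd88 start. The GAS-like, ISRE-like and AP-1 type motifs occurred in 7.67%, 3.41% and 6.34% of the windows. Matches are descriptions of sequence and not evidence of binding.

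The CYT challenge changed 3 of 10 members, beside 21.6% of all genes tested. Irak2 rose 4.70-fold and Irak3 3.15-fold, and Il1r1 fell to 0.353 of its untreated level. In preconditioned challenged cells Irak2 and Irak3 were at 0.317 and 0.271 of their CYT levels, and Irak3 overlapped the untreated libraries. Preconditioning alone changed none of the members beyond the thresholds, which asked for an adjusted p under 0.01 and a log2 fold change past 0.6 in either direction for IL-1βlow against untreated cells, or past 1 in the other comparisons (edgeR's quasi-likelihood test, Benjamini-Hochberg adjustment over 14324 genes).

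**Figure D1:**
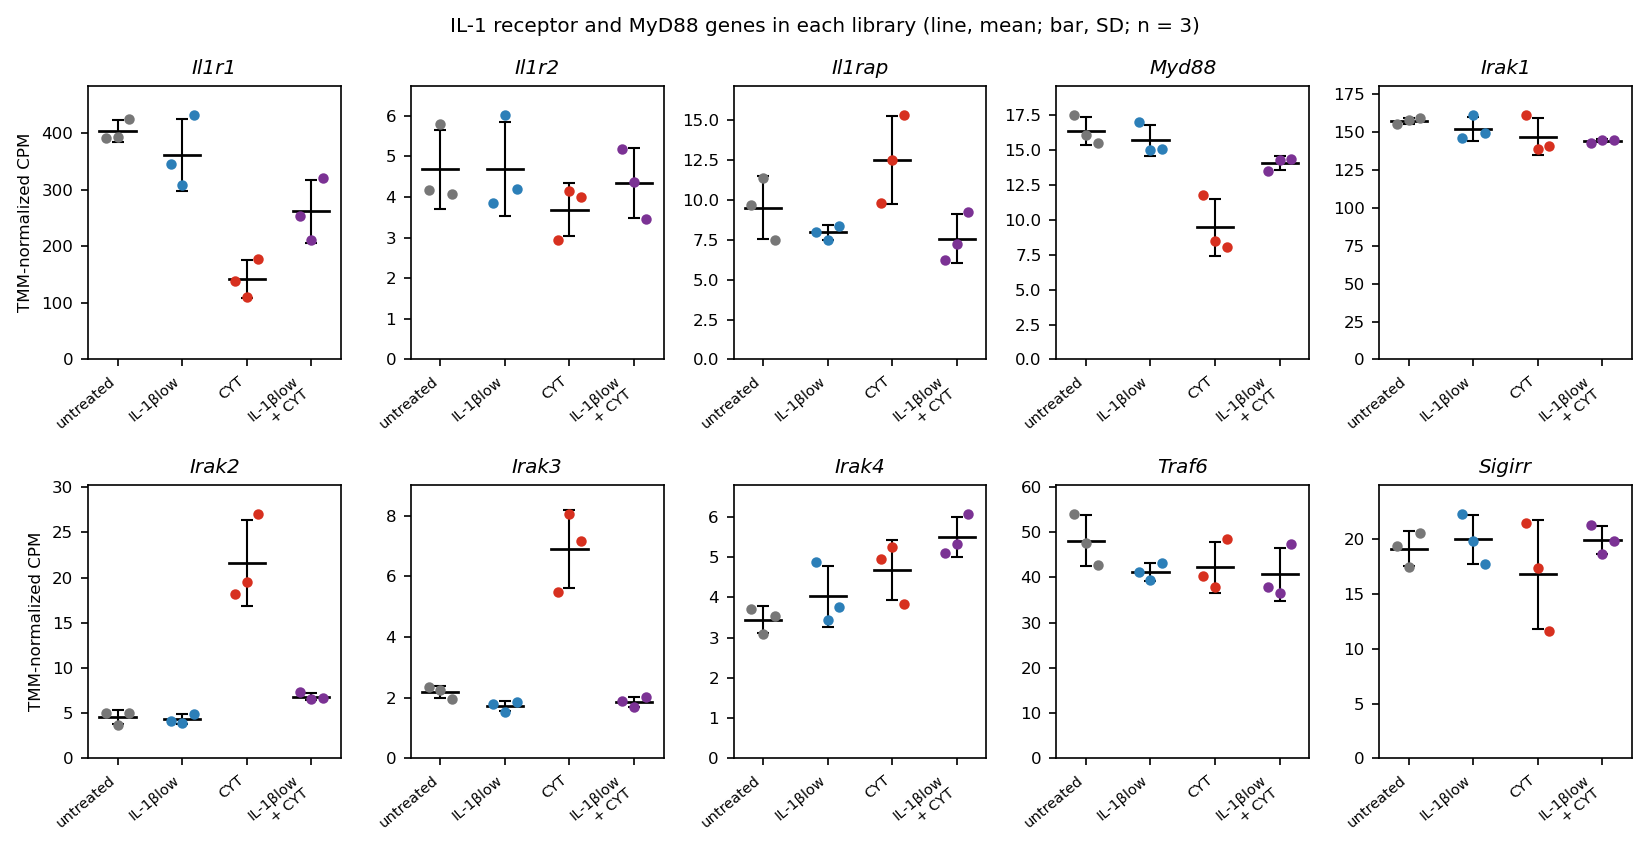
TMM-normalized CPM of each of the 10 members (y axes, starting at 0) in the 3 libraries of each group (points), with the group mean (line) and SD (bar). Irak2 and Irak3 stand highest in the CYT libraries, and Il1r1 and Myd88 lowest.

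The signalling receptor Il1r1 was at 392, 393 and 426 CPM in untreated libraries, 346, 308 and 432 CPM in IL-1βlow libraries, 139, 110 and 178 CPM in CYT libraries, and 254, 211 and 321 CPM in IL-1βlow + CYT libraries. The CYT libraries were the lowest and overlapped no other group, whereas IL-1βlow libraries spread on both sides of the untreated ones. By mean the order was untreated (404 ± 19.4), IL-1βlow (362 ± 63.4), IL-1βlow + CYT (262 ± 55.8) and CYT (142 ± 33.8 CPM, SD, n = 3 each). CYT lowered Il1r1 to 0.353 of the untreated level, a log2 fold change of -1.50 (SE 0.18, 95% confidence interval -1.88 to -1.12, adjusted p = 4.8e-06). Preconditioned challenged cells held 1.84 times the Il1r1 of CYT cells, a log2 difference of 0.88 (SE 0.17, interval 0.50 to 1.25, adjusted p = 8.3e-04), which was under the fold change minimum. Without CYT replicate 3 the difference was 1.04, and without IL-1βlow + CYT replicate 2 it was 1.01, and both then passed. Against untreated cells, IL-1βlow + CYT cells were at -0.62 on the log2 scale (interval -0.99 to -0.25, adjusted p = 0.018), and IL-1βlow cells at -0.16 (interval -0.53 to 0.21, adjusted p = 0.68). Neighbours in the order thus differed beyond their spread between IL-1βlow + CYT and CYT cells, and not between untreated and IL-1βlow cells or between IL-1βlow and IL-1βlow + CYT cells (adjusted p = 0.1).

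For the decoy receptor Il1r2, levels were low, from 2.93 to 6.01 CPM (54 to 98 counts) across the 12 libraries. Group means were 4.68 ± 0.967 in untreated, 4.68 ± 1.16 in IL-1βlow, 3.69 ± 0.656 in CYT and 4.33 ± 0.861 CPM in IL-1βlow + CYT libraries (SD, n = 3), and every group overlapped every other. The log2 difference of IL-1βlow from untreated cells was 0.00 (interval -0.50 to 0.49), and that of IL-1βlow + CYT from CYT cells was 0.23 (interval -0.27 to 0.74). The upper bounds of 0.49 and 0.74 are the largest rises of the decoy that these intervals hold.

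The co-receptor Il1rap was at 9.68, 11.4 and 7.48 CPM in untreated, 8.0, 7.48 and 8.39 CPM in IL-1βlow, 9.78, 12.5 and 15.3 CPM in CYT, and 6.20, 7.26 and 9.27 CPM in IL-1βlow + CYT libraries. Every IL-1βlow + CYT library was below every CYT library, while CYT and untreated libraries overlapped. The log2 difference between IL-1βlow + CYT and CYT cells was -0.73 (SE 0.20, interval -1.15 to -0.30, adjusted p = 0.0074), under the fold change minimum. Between CYT and untreated cells it was 0.40 (interval -0.02 to 0.82, adjusted p = 0.093). LOC120095686, which overlaps Il1rap in the annotation, had at most 2 counts in any library.

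Sigirr, the inhibitory receptor, ranged from 11.6 to 22.3 CPM, and its groups overlapped in every comparison. CYT replicate 3 was the lowest library at 11.6 CPM, with the other CYT libraries at 21.5 and 17.4 CPM. Its log2 difference was -0.19 between CYT and untreated cells (interval -0.57 to 0.19) and 0.25 between IL-1βlow + CYT and CYT cells (interval -0.13 to 0.62). Sigirr overlaps Pkp3 in the annotation and the strand setting of the counting is not given in the sources used here, so its reads cannot be fully separated from those of its neighbour, which had 1 to 4 counts per library. The same limit holds for the other members with an overlapping gene, Il1rap, Myd88, Irak1, Irak2 and Irak4.

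The adaptor Myd88 was at 17.5, 16.1 and 15.5 CPM in untreated libraries, 17.0, 15.0 and 15.1 CPM in IL-1βlow libraries, 11.8, 8.51 and 8.08 CPM in CYT libraries, and 13.5, 14.3 and 14.4 CPM in IL-1βlow + CYT libraries. The CYT libraries lay below all others, and the IL-1βlow + CYT libraries lay between the CYT and the untreated ones without touching either. CYT cells were at 0.579 of the untreated level (log2 fold change -0.79, SE 0.14, interval -1.10 to -0.48, adjusted p = 2.7e-04) and IL-1βlow + CYT cells at 1.48 times the CYT level (0.57, SE 0.14, interval 0.26 to 0.88, adjusted p = 0.0044). Neither difference reached the fold change minimum. Between IL-1βlow + CYT and untreated cells the log2 difference was -0.22 (interval -0.52 to 0.08, adjusted p = 0.29), although the libraries did not overlap. Myd88 overlaps Acaa1a, a peroxisomal thiolase gene, whose own log2 difference was 0.07 between CYT and untreated cells (adjusted p = 0.68) and -0.20 between IL-1βlow + CYT and CYT cells (adjusted p = 0.28). Acaa1a had 235 to 387 counts per library, against 146 to 332 for Myd88.

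Among the kinases, Irak2, which sustains signalling to TRAF6, had the largest rise of any member with CYT. It was at 5.04, 3.67 and 5.05 CPM in untreated, 4.10, 3.93 and 4.94 CPM in IL-1βlow, 18.2, 19.5 and 27.0 CPM in CYT, and 7.30, 6.56 and 6.66 CPM in IL-1βlow + CYT libraries. All CYT libraries stood above all others, and the preconditioned challenged libraries formed a narrow group just above the unchallenged ones. Irak2 rose 4.70-fold with CYT (log2 fold change 2.23, SE 0.18, interval 1.84 to 2.62, adjusted p = 1.1e-07). In IL-1βlow + CYT cells it fell to 0.317 of the CYT level (log2 fold change -1.66, SE 0.17, interval -2.03 to -1.29, adjusted p = 3.5e-06). The remaining difference from untreated cells was 0.57 on the log2 scale (interval 0.17 to 0.98, adjusted p = 0.04) and that from IL-1βlow cells 0.66 (interval 0.26 to 1.06, adjusted p = 0.03), which did not pass. Irak2 overlaps LOC120102364, which had at most 3 counts in any library.

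The pseudokinase Irak3 was at 2.35, 2.25 and 1.95 CPM in untreated, 1.79, 1.53 and 1.85 CPM in IL-1βlow, 5.49, 8.04 and 7.16 CPM in CYT, and 1.88, 1.69 and 2.02 CPM in IL-1βlow + CYT libraries. Only the CYT libraries stood apart from the rest, with 101 to 140 counts each against 25 to 41 elsewhere. Irak3 rose 3.15-fold with CYT (log2 fold change 1.66, SE 0.20, interval 1.23 to 2.08, adjusted p = 6.1e-06). It was at 0.271 of the CYT level in IL-1βlow + CYT cells (log2 fold change -1.88, SE 0.20, interval -2.32 to -1.45, adjusted p = 4.2e-06), where it differed from untreated cells by -0.23 (interval -0.70 to 0.24, adjusted p = 0.49). Between IL-1βlow and untreated cells the log2 difference was -0.34 (interval -0.81 to 0.14, adjusted p = 0.49), although the libraries of these groups did not overlap.

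Irak4, the kinase that starts the cascade, was low, at 3.44 ± 0.331 CPM in untreated, 4.02 ± 0.752 in IL-1βlow, 4.67 ± 0.744 in CYT and 5.50 ± 0.501 CPM in IL-1βlow + CYT libraries (SD, n = 3). The last group did not overlap the untreated or the IL-1βlow libraries. Against untreated cells the log2 difference of IL-1βlow + CYT cells was 0.67 (interval 0.26 to 1.08, adjusted p = 0.02), which did not pass. Irak4 overlaps Pus7l and Rpl18-ps11, and Pus7l itself was at 0.08 between CYT and untreated cells (adjusted p = 0.67). Pus7l had 135 to 209 counts per library, against 52 to 107 for Irak4.

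Irak1 and the ubiquitin ligase gene Traf6 varied least. Irak1 ran from 139 to 161 CPM over the 12 libraries, with log2 differences from untreated cells of -0.05 (interval -0.21 to 0.11) in IL-1βlow, -0.10 (interval -0.26 to 0.06) in CYT and -0.13 (interval -0.29 to 0.04) in IL-1βlow + CYT cells. Traf6 ran from 36.6 to 53.9 CPM and differed from untreated cells by -0.22 (interval -0.49 to 0.05), -0.19 (interval -0.45 to 0.08) and -0.24 (interval -0.51 to 0.03) in the same order. For both genes, these intervals leave out a rise or fall of the size seen for Irak2 or Il1r1. Irak1 overlaps LOC120099462 and Mir5132, with at most 4 and 5 counts in any library.

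**Figure D2:**
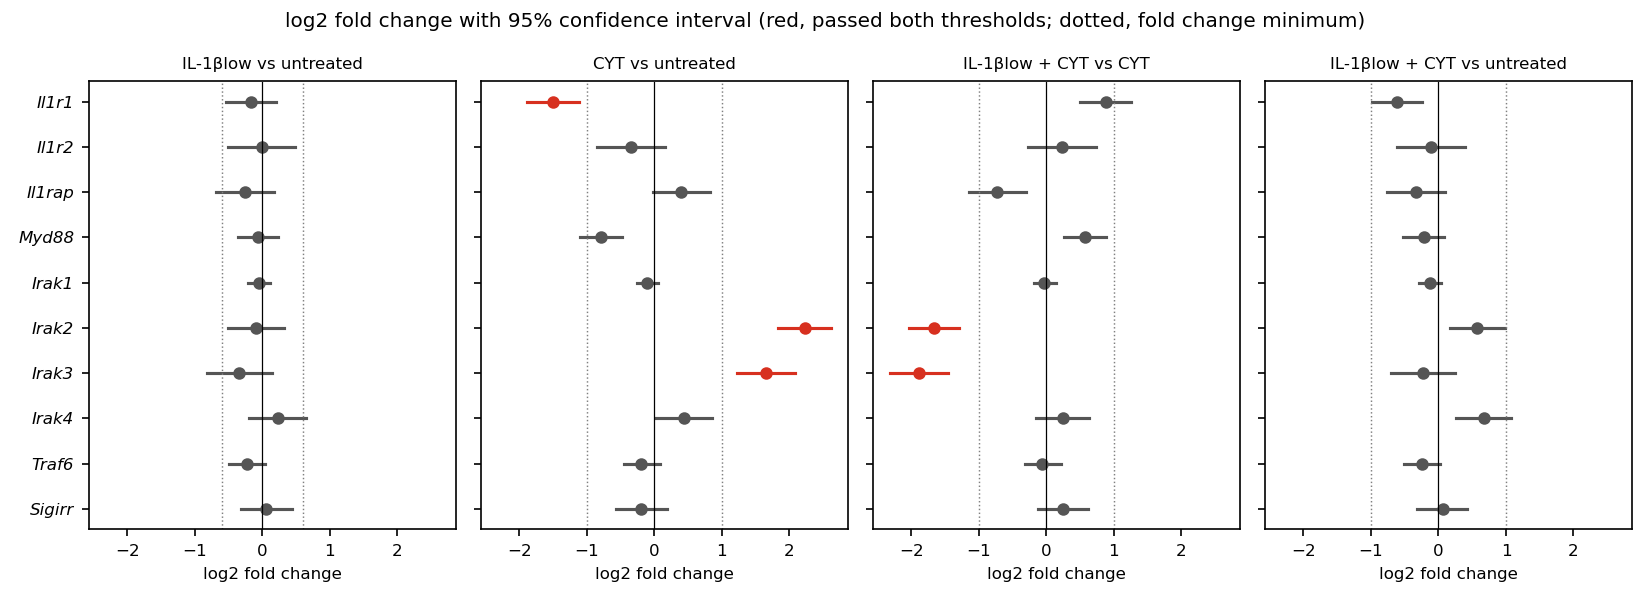
log2 fold change (x axis) with its 95% confidence interval for each of the 10 members (y axis) in 4 comparisons, with the fold change minimum of each comparison as dotted lines and members past both thresholds in red. Il1r1, Irak2 and Irak3 passed with CYT, Irak2 and Irak3 between IL-1βlow + CYT and CYT cells, and none in the other 2 panels.

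Counted over the members, CYT against untreated cells gave 3 of 10 called, 2 higher and 1 lower, beside 21.6% of all genes tested (10.0% higher, 11.6% lower). By adjusted p alone, 4 of 10 were under 0.01, beside 49.7% of all genes, and 5 of 10 had libraries that did not overlap, beside 69.3%. The share of members called was close to that of all genes. Their median log2 fold change was -0.14, and that of all genes -0.04.

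Between IL-1βlow + CYT and CYT cells 2 of 10 were called, 0 higher and 2 lower, beside 12.5% of all genes (6.54% higher, 5.92% lower). An adjusted p under 0.01 was reached by 5 of 10, beside 36.3%, and 5 of 10 did not overlap, beside 54.4%. Of these 5, Il1r1 and Myd88 were higher and Il1rap, Irak2 and Irak3 lower in the preconditioned cells. The members had a median of 0.10 and all genes one of 0.02.

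Preconditioning alone called 0 of 10, beside 0.433% of all genes, with log2 differences from -0.34 to 0.23 and a smallest adjusted p of 0.43. By unadjusted p under 0.05 the count was also 0 in edgeR's quasi-likelihood test, and DESeq2's Wald test and edgeR's exactTest called 0 members as well. Irak3 was the single member, 1 of 10, whose libraries did not overlap, beside 23.7% of all genes. The median difference was -0.07 for the members and 0.00 for all genes.

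After both treatments no member passed against either group of unchallenged cells. Against untreated cells, IL-1βlow + CYT cells had 0 of 10 members called, beside 5.99% of all genes, and against IL-1βlow cells 0 of 10, beside 3.88%. By unadjusted p under 0.05 in the quasi-likelihood test the count was 3 in each of these comparisons (Il1r1, Irak2 and Irak4 in both). Libraries did not overlap for 5 of 10 members against untreated cells, beside 37.3%, and for 4 of 10 against IL-1βlow cells, beside 27.1%. Comparisons that share a group share its libraries, so their values are given side by side only.

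The interaction term tested whether the log2 response to CYT differed between preconditioned and other cells. It was called for 3 of 10 members, 1 higher and 2 lower, beside 10.7% of all genes (5.48% higher, 5.20% lower). For Irak2 the CYT response was 2.23 without and 0.66 with preconditioning, an interaction of -1.57 (SE 0.26, adjusted p = 4.1e-04). For Irak3 the responses were 1.66 and 0.11, an interaction of -1.55 (SE 0.30, adjusted p = 0.0012). Il1r1 had responses of -1.50 and -0.47 and an interaction of 1.03 (SE 0.24, interval 0.51 to 1.56, adjusted p = 0.0047), close to the fold change minimum. The Il1r1 call was lost in 9 of 12 fits that left out 1 library, where the value ran from 0.86 to 1.20. Myd88 missed the thresholds with 0.63 (adjusted p = 0.024), and the other 6 members lay between -0.47 and 0.24 with adjusted p of 0.21 or more.

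Ratios within a library set the inhibitory members against their signalling partners. They are not scaled for transcript length, so only their change between groups can be read. Il1r2 reads per 100 Il1r1 reads were 1.17 ± 0.274 in untreated, 1.35 ± 0.532 in IL-1βlow, 2.72 ± 0.920 in CYT and 1.74 ± 0.570 in IL-1βlow + CYT libraries (SD, n = 3). This decoy ratio was 2.28-fold higher in CYT than in untreated libraries, with no overlap, while Il1r2 itself did not pass and Il1r1 fell. Between IL-1βlow + CYT and CYT libraries it was 1.58-fold lower. Sigirr reads per 100 Il1r1 reads followed the same order of groups, at 4.75 ± 0.254, 5.68 ± 1.35, 12.6 ± 5.24 and 7.83 ± 1.44 (SD, n = 3).

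Irak3 reads per 100 Irak4 reads were 64.1 ± 8.91 in untreated, 44.0 ± 6.29 in IL-1βlow, 150 ± 37.7 in CYT and 34.3 ± 2.66 in IL-1βlow + CYT libraries (SD, n = 3). The ratio of pseudokinase to kinase was 4.28-fold lower in IL-1βlow + CYT than in CYT libraries and 1.86-fold lower than in untreated libraries, with no overlap in either case. With preconditioning alone it was already 1.46-fold lower than in untreated libraries, also with no overlap. IL-1βlow + CYT libraries (32.1 to 37.3) narrowly overlapped IL-1βlow libraries (37.2 to 49.6). With 3 libraries against 3, an exact two-sided permutation test cannot go below p = 0.1. This value was reached by 8 of the 15 tests of the 3 ratios (adjusted p = 0.188 over the 15), so none passed. The fold differences named above for Il1r2 and Irak3 were among these 8.

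**Figure D3:**
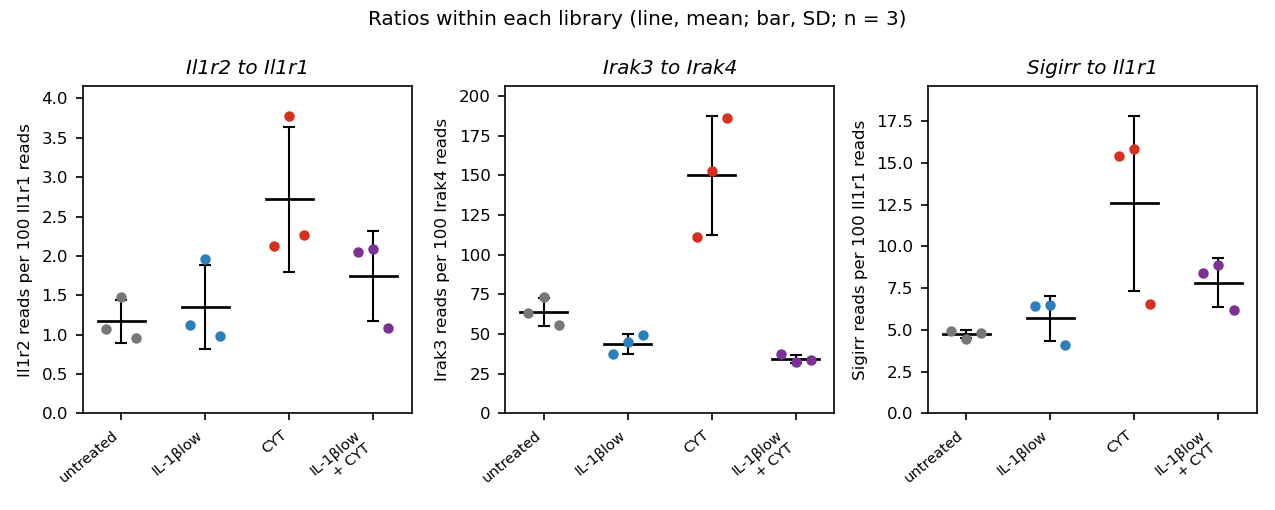
Reads of an inhibitory member per 100 reads of its signalling partner (y axes, starting at 0) in the 3 libraries of each group (points), with the mean (line) and SD (bar). The Il1r2 to Il1r1 and Sigirr to Il1r1 ratios are highest by mean in CYT libraries. The Irak3 to Irak4 ratio is high in CYT libraries and lowest by mean in IL-1βlow + CYT libraries.

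Across the 12 libraries the members also varied with each other, which describes the groups as much as the genes since the points share 4 treatments. Pearson's r of log2 CPM was 0.923 between Irak2 and Irak3, 0.840 between Il1r1 and Myd88, -0.934 between Myd88 and Irak2 and -0.871 between Il1r1 and Irak2. Among the genes outside the list, the pattern of Irak2 was most like that of Clic4 (r = 0.992), Ghitm (0.989) and Irf2bp2 (0.989), and that of Irak3 most like Enoph1 (0.991), LOC100912041 (0.989) and LOC100909675 (0.984). Il1r1 was most like Tnrc6a (0.984), Stard4 (0.983) and Sphkap (0.982), and Myd88 most like Defb36 (0.979), Prp2l1 (0.975) and LOC120095172 (0.974). For Il1rap the closest were Pcgf5 (0.958), Csnk1g3 (0.936) and Dsc2 (0.932), and for Traf6 Taf1d (0.953), Ube3a (0.948) and Yipf4 (0.948). Irak4 was closest to Nkain1 (0.929), Lyplal1 (0.892) and Ptpn18 (0.878), and Sigirr to Uros (0.919), Samd11 (0.915) and Flywch1 (0.911). The nearest genes of Il1r2, led by Rac1 (0.877), Gpr75 (0.873) and Crmp1 (0.844), and of Irak1, led by Grm4 (0.843), Taok3 (0.834) and Trim65 (0.827), were less close.

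Upstream of the receptor, the ligands and their antagonist were scarcely transcribed. Of 10 genes of this list 2 passed the CPM filter, Il18 and Il33. The agonist gene Il1b had 0 counts in every untreated and IL-1βlow library, 2, 12 and 12 counts in CYT libraries and 2, 3 and 3 in IL-1βlow + CYT libraries. Il1a had 8, 4 and 16 counts in CYT libraries and 9, 4 and 9 in IL-1βlow + CYT libraries, against at most 2 elsewhere. Il1rn, the gene of the IL-1 receptor antagonist, had 8, 10 and 2 counts in CYT libraries, 1, 0 and 0 in IL-1βlow + CYT libraries, 0 in IL-1βlow libraries and 0, 4 and 0 in untreated libraries. These 3 genes lay under the CPM filter. In the fit without a filter, over 24221 genes, Il1rn was called lower in IL-1βlow + CYT than in CYT cells (adjusted p = 0.009), and Il1a (adjusted p = 0.84) and Il1b (adjusted p = 0.15) were not. With CYT against untreated cells, that fit called Il1a (adjusted p = 2.7e-05) and Il1b (adjusted p = 1.4e-04) higher, and not Il1rn (adjusted p = 0.079). At so few counts these calls are not read as results. Il33, an alarmin of the IL-1 family, fell with CYT from 3.78, 4.50 and 3.34 CPM to 1.36, 1.57 and 1.23 CPM (log2 fold change -1.48, SE 0.26, adjusted p = 2.2e-04). It was higher in IL-1βlow + CYT libraries, at 2.74, 3.53 and 2.97 CPM (1.16 against CYT cells, SE 0.27, adjusted p = 0.0024), a call that was lost without CYT replicate 1, CYT replicate 3 or IL-1βlow + CYT replicate 2.

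Of 19 genes of related IL-1 family and toll-like receptors 5 passed the CPM filter. The unchallenged libraries alone carried 3 of them past it, of which Il18r1 rose with CYT, beside 21.6% of all genes called, while Il1rl2 (-1.38, adjusted p = 0.013) and Tlr6 (-0.86, adjusted p = 0.097) were not called. The other 2, Il18rap and Tlr2, passed only with the challenged libraries, where they are high, so the filter itself selected genes that differ and the number that rose is not read as a result. Il18rap, the accessory chain of the IL-18 receptor, was at 0.458, 0.355 and 0.304 CPM in untreated, 28.3, 23.1 and 39.2 CPM in CYT and 20.2, 14.1 and 21.0 CPM in IL-1βlow + CYT libraries. Its log2 difference between CYT and untreated cells was 6.31 (SE 0.34), which for this reason is not read as a result. Its partner Il18r1 rose by 2.23 (SE 0.28, adjusted p = 9.9e-06), from 1.78, 2.84 and 1.09 CPM to 8.48, 8.57 and 9.81 CPM. Il18r1 remained higher in IL-1βlow + CYT than in untreated cells, by 1.45 (adjusted p = 0.0019 in the quasi-likelihood test). Il18rap was at 5.60 there, likewise not read as a result. Without untreated replicate 1, 1 of the 3 receptors called between these groups passed. Tlr2, a toll-like receptor that also signals through MyD88, had 2 counts in each untreated library and 15, 17 and 31 in CYT libraries. Tlr6 was the 1 related receptor called between IL-1βlow + CYT and CYT cells (1.43, SE 0.41, adjusted p = 0.0095), beside 12.5% of all genes. It had 9, 4 and 9 counts in CYT and 13, 22 and 23 in IL-1βlow + CYT libraries. This call was lost with DESeq2, with RLE size factors, and without IL-1βlow + CYT replicate 1 or any of the 3 CYT replicates. With at least 10 counts asked in every library, Tlr6 was not tested. The number of related receptors called there ran from 0 to 4 over 8 alternative settings and stayed the same in 2.

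Of the adaptors and modulators around MyD88 and TRAF6, all 13 passed the CPM filter, and 1 was called with CYT, beside 21.6% of all genes. Of the 12 genes that the unchallenged libraries alone carried past the filter, 0 were called. By adjusted p under 0.01 alone the count was 9 of 13, beside 49.7% of all genes. Among these 9, named after their values were seen, Peli3 was 1.87-fold and Ecsit 1.63-fold higher in CYT than in untreated cells, and Tirap, Ticam1 and Peli1 were at 0.605, 0.647 and 0.715 of the untreated level, all under the fold change minimum. The gene called was Tifa, an adaptor that binds TRAF6, which went from 0.458, 0.533 and 0.426 CPM in untreated to 2.23, 2.04 and 1.99 CPM in CYT libraries (log2 fold change 2.13, SE 0.28, adjusted p = 1.7e-05). Tifa passed the filter only with the challenged libraries, where it is high, so its rise is not read as a result. In IL-1βlow + CYT libraries Tifa was at 1.95, 2.34 and 1.78 CPM, a difference from CYT cells of -0.04 (interval -0.55 to 0.46). Between IL-1βlow + CYT and CYT cells 0 of 13 were called, beside 12.5% of all genes. By adjusted p under 0.01 alone the count was 6, beside 36.3% of all genes. The median was -0.05, beside 0.02 for all genes. Without CYT replicate 2 the count with CYT was 2.

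Of 16 genes of the TAK1 and IKK kinase list 15 passed the CPM filter, and 1 rose with CYT, beside 10.0% of all genes called higher. By adjusted p under 0.01 alone 9 of 15 passed there, beside 49.7% of all genes. Map3k8, which encodes the kinase TPL2, was at 1.49, 0.947 and 1.40 CPM in untreated, 0.820, 0.675 and 1.11 CPM in IL-1βlow, 19.6, 20.8 and 30.0 CPM in CYT and 7.72, 6.81 and 9.98 CPM in IL-1βlow + CYT libraries. It rose by 4.19 on the log2 scale with CYT (SE 0.25, adjusted p = 3.9e-09). Between IL-1βlow + CYT and CYT cells it differed by -1.52 (SE 0.20, adjusted p = 2.6e-05). Map3k8 was the 1 gene of the list called there, beside 12.5% of all genes. Without CYT replicate 1 the count was 2 in both comparisons, and without IL-1βlow + CYT replicate 2 or 3 it was 2 in the latter. By adjusted p under 0.01 alone, 5 of 15 passed between IL-1βlow + CYT and CYT cells, beside 36.3% of all genes. The kinase genes Map3k7 (TAK1), Chuk, Ikbkb and Ikbkg had log2 differences between -0.77 and 0.38 with CYT, and none was called. The median of the list was 0.05 with CYT and -0.21 between IL-1βlow + CYT and CYT cells.

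Genes that IL-1 induces in many cell types stand downstream of the members, but CYT also held IFN-γ, whose part in their changes was not tested. Of 12 such genes 10 passed the CPM filter. The unchallenged libraries alone carried 5 of them past it (Nfkbia, Tnfaip3, Zc3h12a, Icam1 and Birc3). All 5 rose with CYT, by 2.80 (Tnfaip3) to 5.80 (Icam1) on the log2 scale, beside 10.0% of all genes called higher. Between IL-1βlow + CYT and CYT cells 1 of these 5, Icam1, fell, beside 5.92% of all genes called lower. The other 4 were at -0.27 (Tnfaip3) to -0.77 (Birc3) and not called. By adjusted p under 0.01 alone in the quasi-likelihood test, Zc3h12a (4.9e-05), Nfkbia (4.3e-04) and Birc3 (0.0027) were also lower. Tnfaip3 (adjusted p = 0.11) was not, and 36.3% of all genes passed by adjusted p alone. Nos2, Cxcl1, Cxcl2, Ccl2 and Ccl20 passed only with the challenged libraries, so their rise with CYT is not counted, and Il6 and Vcam1 did not pass. The inducible nitric oxide synthase gene Nos2 went from 412, 605 and 688 CPM in CYT libraries to 33.0, 55.7 and 57.8 CPM in IL-1βlow + CYT libraries (log2 fold change -3.54, SE 0.21, adjusted p = 2.8e-08), with at most 2 counts in each library of the other groups. Nos2 can share reads with its pseudogene Nos2-ps1. Icam1, Cxcl2 and Cxcl1 fell as well, at -2.19, -2.15 and -1.48 on the log2 scale (adjusted p = 7.0e-07, 9.5e-07 and 2.9e-05 in the quasi-likelihood test). Ccl20 was at -2.58, but it passed the filter only through the CYT libraries, where it is high, so its fall is not read as a result. Nfkbia, the IκBα gene, rose by 3.00 with CYT (adjusted p = 5.4e-11) and differed by -0.56 between IL-1βlow + CYT and CYT cells (interval -0.78 to -0.34, adjusted p = 4.3e-04), under the fold change minimum.

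**Figure D4:**
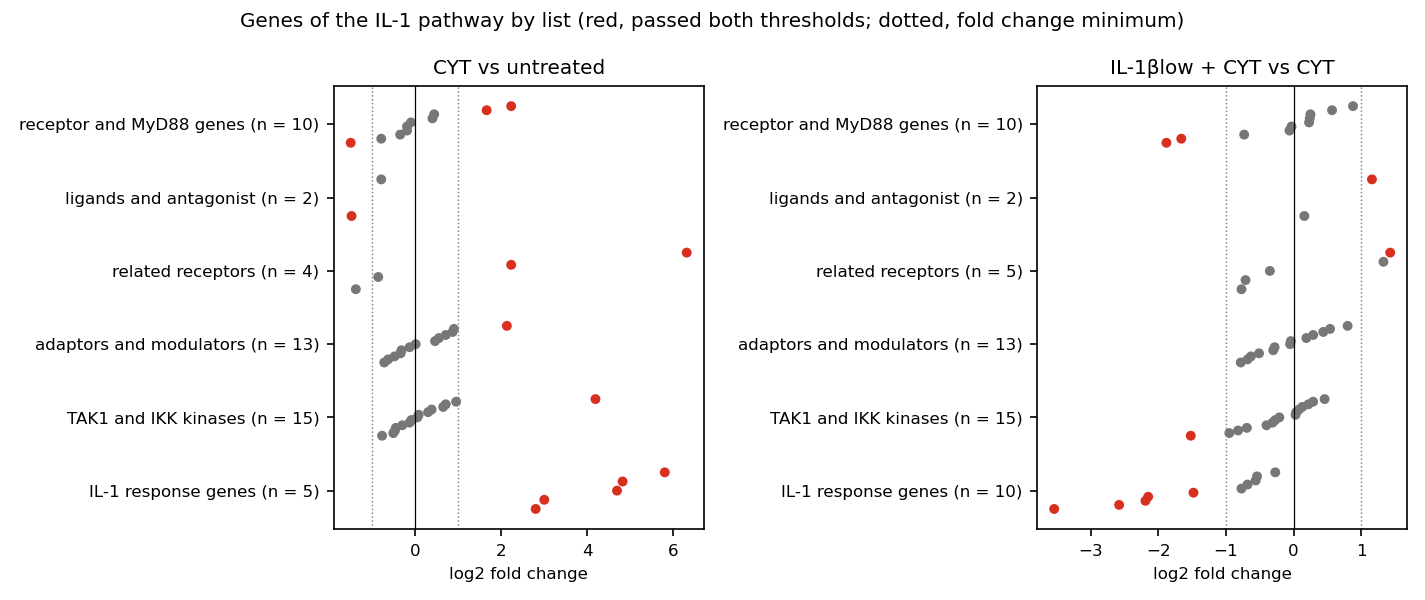
log2 fold change (x axis) of every tested gene of the members and of 5 further lists (y axis), for CYT against untreated cells and for IL-1βlow + CYT against CYT cells, with genes past both thresholds in red and the fold change minimum dotted. Tlr2 and 5 response genes with at most 3 counts in every untreated library are left out of the left panel, where response genes lie to the right of zero; in the right panel they lie to the left of it.

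Of 8 leukocyte and macrophage markers 3 passed the CPM filter, all at low counts. Adgre1, a macrophage gene, had at most 1 count in unchallenged libraries, and reached 0.816 to 1.96 CPM in CYT and 2.25 to 3.45 CPM in IL-1βlow + CYT libraries. Csf1r, the receptor gene of a macrophage growth factor, went the other way with CYT. It went from 10, 13 and 9 counts in untreated to 5, 3 and 1 in CYT libraries (adjusted p = 0.013, not called). In IL-1βlow + CYT libraries it stood at 24, 32 and 21 counts. Csf1r passed the filter only through these libraries, where it is high, so its log2 difference of 3.08 from CYT cells is not read as a result. Adgre1 also passed only with the challenged libraries. Cd68 was called in neither comparison (0.60 with CYT and -0.43 between IL-1βlow + CYT and CYT cells). Of 7 endothelial, stromal and duct cell markers the collagen gene Col1a2 alone passed the filter, and it was called higher in IL-1βlow + CYT (20, 31 and 13 counts) than in CYT libraries (6, 3 and 4 counts, log2 2.30, adjusted p = 0.0039). Endothelial, stromal and duct cell markers summed to 0.516 to 2.69 CPM over the 12 libraries. Markers of other islet cells summed to 187 to 368 CPM in untreated, 157 to 260 in IL-1βlow, 25.4 to 64.9 in CYT and 74.5 to 152 CPM in IL-1βlow + CYT libraries, most of it Gcg. Like Il1r1 and Myd88, these sums and those of the β-cell markers were lowest in CYT libraries, and their part in the results was not tested.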

How the data were processed

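Poly(A) RNA of INS-1E cells was sequenced in 12 TruSeq libraries. The authors used FastQC for quality control and rfastp for trimming, and in R 4.3.3 Rsubread aligned the reads to mRatBN7.2 and featureCounts summarised them per gene. What was deposited is raw counts, whole numbers for each gene symbol and library that were not normalized. The strand setting is not given in the sources used here, and counts per symbol do not separate membrane from soluble isoforms. All 12 columns were matched to samples by name, and 0 were left unused.

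The counts were analysed with edgeR 4.0.16, limma 3.58.1 and DESeq2 1.42.0. The filter retained 14324 symbols that exceeded 1 CPM in 2 or more libraries. After TMM scaling, the 4 groups were fitted together by edgeR's quasi-likelihood method with 8 residual degrees of freedom (common biological coefficient of variation 0.123), and p-values were adjusted by Benjamini-Hochberg over all genes tested. Filter and thresholds are the study's, and its exactTest served as an alternative. Ratios were tested as log2 of counts plus 0.5. Intervals are at the 95% level. Because the reads carry no molecular identifiers, the depth bounds counting error only.

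The members and the gene lists were chosen with earlier results of these data known. All 10 members are named, with up to 4 called genes of largest change per list and comparison, Il1a, Il1b, Il1rn and Nfkbia, and the 3 genes most like each member with a mean log2 CPM above 2. Overlapping genes were taken from RefSeq's GRCr8 annotation.

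Replicate numbers come from the labels, which do not say that same-numbered libraries were grown together. Such libraries deviated together (every correlation above 0.1) between IL-1βlow + CYT and CYT cells (0.116, 0.475 and 0.453) and between IL-1βlow + CYT and IL-1βlow cells (0.179, 0.469 and 0.520), and not in the other comparisons. Alternatives covered the scaling (RLE), the test (DESeq2, exactTest), the filter (none, or 10 counts in each library), the samples (the pair of groups alone, or 1 library left out), the replicate block, an adjusted p under 0.05 with no minimum of fold change, and a pseudocount of 1. The fit was tested on simulated data for CYT against untreated cells. Of 14072 genes, 200 carried a log2 fold change of 1.5 up or down, of which 169 (84.5%) were recovered, with 0 false calls. The simulated libraries were independent and few genes changed, whereas 3096 of 14324 genes were called in the data. Recovery and false calls thus describe that simpler setting only. Proteins and mouse islets are outside these counts.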

Additional observations from a re-analysis of the deposited data

Results flagged for a closer look

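For 3 of 10 members, beside 10.7% of all genes, the response to CYT differed with preconditioning by the interaction term of edgeR's quasi-likelihood test. The interaction was -1.57 for Irak2 (adjusted p = 4.1e-04), -1.55 for Irak3 (adjusted p = 0.0012) and 1.03 for Il1r1 (adjusted p = 0.0047). The Il1r1 call was lost in 9 of 12 fits that left out 1 library and without a filter on low counts (0.98).

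The same test found a difference for 4 genes of the further lists, beside 10.7% of all genes. By list these were 1 of 2 ligand genes tested, 1 of 15 kinase genes and 2 of 10 response genes. Of the 5 related receptors and of the 13 adaptors and modulators, 0 were called. Il33 had an interaction of 1.69 (adjusted p = 0.0025). Tab1, a TAK1 binding protein gene, was at -1.0 (adjusted p = 9.0e-04), a call that was lost with the replicate block and without CYT replicate 2, IL-1βlow replicate 2 or IL-1βlow + CYT replicate 3. The adhesion molecule gene Icam1 was at -2.58 (adjusted p = 8.1e-05) and Birc3, which encodes the ubiquitin ligase cIAP2, at -1.63 (adjusted p = 0.0016).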

How the results depend on the processing

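The calls of Irak2 and Irak3 with CYT, between IL-1βlow + CYT and CYT cells and in the interaction, and that of Il1r1 with CYT, held under every alternative run. The number of members called moved by more than 1.5 times only with an adjusted p under 0.05 and no minimum of fold change, to 5 between IL-1βlow + CYT and CYT cells, 3 between IL-1βlow + CYT and untreated cells and 1 between IL-1βlow + CYT and IL-1βlow cells. With the replicate block, members called were 0 with IL-1βlow, 3 with CYT, 2 between IL-1βlow + CYT and CYT cells, 0 in both other pairwise comparisons and 3 in the interaction, so the block changed no call of a member. Over all genes, IL-1βlow against untreated cells had 62 calls, and 141 with the replicate block, 138 with DESeq2, 137 with exactTest, 229 without a filter on low counts, 193 with an adjusted p under 0.05 alone, 16 to 29 without any one of the untreated libraries or of IL-1βlow replicates 1 and 2, and 74 without IL-1βlow replicate 3. The Il1r1 interaction was 0.98 without a filter and 0.86 to 1.20 with a library left out. Low depth limits Il1r2, Irak3 and Irak4 most.

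Log2 differences near 0, none of them called, changed sign. With RLE size factors and with DESeq2, Il1r2 between IL-1βlow and untreated cells was 0.01, and the interactions of Irak1 and Irak4 were -0.01 and -0.03. Without a filter, these 3 values were 0.02, -0.03 and -0.04, and Sigirr between IL-1βlow + CYT and IL-1βlow cells was 0.01, as it was with only these groups fitted (0.00 with the replicate block). With at least 10 counts in every library the Irak4 interaction was -0.01. With a library left out, Il1r2 ran from -0.23 to 0.18 (IL-1βlow against untreated), -0.27 to 0.05 (IL-1βlow + CYT against untreated) and -0.26 to 0.09 (against IL-1βlow). Sigirr ran in these comparisons from -0.03 to 0.14, -0.02 to 0.11 and -0.08 to 0.07, from -0.37 to 0.05 with CYT, and from -0.05 to 0.37 in the interaction. The Irak1 and Irak4 interactions ran from -0.03 to 0.07 and -0.14 to 0.14. Between IL-1βlow + CYT and CYT cells Irak1 ran from -0.08 to 0.01 and Traf6 from -0.18 to 0.03. Against IL-1βlow cells Il1rap ran from -0.24 to 0.04 and Traf6 from -0.15 to 0.05. The log2 ratio of Il1r2 to Il1r1 between IL-1βlow and untreated cells, 0.16, ran from -0.14 (without IL-1βlow replicate 2) to 0.36. The cause of these changes was not tested.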
